A study of Mus musculus with 8 samples.

Results

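The long-term chromate peaks near start sites are regions of open chromatin whose centre lay within 5000 bp of a transcription start site (TSS). They were chosen by 2 measures: a deposited peak call in mouse Hepa-1 hepatoma cells grown in low-dose chromate, and the distance from the peak centre to any RefSeq TSS on GRCm38 (mm10). Of the 860 peaks in the long-term list, 254 qualified, a share of 29.5% (95% Wilson interval 26.6 to 32.7). The remaining 606 were TSS-distal, with 269 inside genes and 337 between genes, and the long-term and acute lists of the study held 3805 peaks together.

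The study asked how hexavalent chromium, Cr(VI), changes chromatin structure and gene expression in Hepa-1 cells, a mouse hepatoma line. Open chromatin was measured by FAIRE-seq and RNA by RNA-seq. The long-term FAIRE library came from cells kept in 0.5 µM CrK2O4 for 20 passages, and its control from cells passaged without it. The acute libraries came from cells given 25 µM CrK2O4 for 90 minutes and from untreated cells, and all groups shared the same line and medium. RNA-seq comprised 2 libraries at the acute dose and time and 2 controls, and the labels of these controls name no regimen. No RNA of the long-term regimen was used here, so every RNA comparison concerns the acute dose.

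In FAIRE, chromatin is crosslinked with formaldehyde and extracted with phenol and chloroform, and DNA that carries few nucleosomes stays in the aqueous phase. Promoters of widely expressed genes commonly lie in CpG islands, stretches rich in G, C and CpG dinucleotides that are often open. AP-1, a family of JUN and FOS dimers that responds to stress and growth signals, binds a short sequence, TGACTCA or TGAGTCA, that is frequent in open chromatin away from promoters. Chromate is taken up through anion transporters and reduced inside the cell, where it damages DNA.

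Peaks whose centre lay 500 to 5000 bp from a TSS often held the AP-1 sequence, and some held it more than once. The AP-1 windows of 8 such members and of the Sun1 and Mmp10 peaks nearer to a start site are printed to show the sequence in its context. Each is read 5′ to 3′ on the strand of the nearest gene from the GRCm38 reference, lies outside annotated exons, and has the AP-1 sequence in capitals. Sun1 encodes a nuclear envelope protein that links the nucleus to the cytoskeleton, and its peak held 4 AP-1 sequences in an intron, 3 of them within 100 bp of the peak centre.
Sun1 (chr5:139215338-139215603, plus strand): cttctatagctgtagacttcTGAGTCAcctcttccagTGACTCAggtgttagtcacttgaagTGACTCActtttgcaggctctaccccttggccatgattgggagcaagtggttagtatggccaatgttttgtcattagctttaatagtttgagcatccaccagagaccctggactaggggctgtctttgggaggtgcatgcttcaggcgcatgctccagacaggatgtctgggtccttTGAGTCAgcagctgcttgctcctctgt
Kdm1a (chr4:136598578-136598776, minus strand): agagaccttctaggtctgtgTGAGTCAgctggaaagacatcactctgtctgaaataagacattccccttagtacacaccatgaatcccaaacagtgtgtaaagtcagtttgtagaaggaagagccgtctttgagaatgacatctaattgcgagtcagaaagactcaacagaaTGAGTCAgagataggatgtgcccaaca
Ralb (chr1:119509677-119509733, minus strand): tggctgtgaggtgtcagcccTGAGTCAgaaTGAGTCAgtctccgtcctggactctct
Gm39575 (chr11:6698443-6698519, plus strand): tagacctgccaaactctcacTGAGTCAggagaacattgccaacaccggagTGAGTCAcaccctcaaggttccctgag
Gm35208 (chr12:12983116-12983202, plus strand): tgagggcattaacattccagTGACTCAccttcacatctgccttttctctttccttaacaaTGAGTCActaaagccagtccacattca
Mir330 (chr7:19182544-19182608, plus strand): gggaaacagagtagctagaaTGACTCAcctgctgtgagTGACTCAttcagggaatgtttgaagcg
Zfp385c (chr11:100651951-100652174, minus strand): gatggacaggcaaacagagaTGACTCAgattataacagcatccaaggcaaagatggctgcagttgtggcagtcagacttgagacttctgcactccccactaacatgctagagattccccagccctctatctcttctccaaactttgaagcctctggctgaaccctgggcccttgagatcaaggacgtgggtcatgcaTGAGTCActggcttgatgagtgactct
Stk3 (chr15:35157480-35157526, minus strand): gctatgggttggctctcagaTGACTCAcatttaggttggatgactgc
Tns1 (chr1:74070410-74070456, minus strand): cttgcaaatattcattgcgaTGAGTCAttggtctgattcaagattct
Mmp10 (chr9:7502259-7502305, plus strand): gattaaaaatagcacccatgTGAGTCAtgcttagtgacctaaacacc

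Peaks within 500 bp of a TSS looked different. The 150 bases just upstream of the start site are printed for 6 of them, again 5′ to 3′ on the gene's strand and free of annotated exons. Capitals mark 5 sequences searched on both strands: the GC box GGGCGG, the CCAAT box, the ETS sequence CCGGAAG, the NRF1 core GCGCATGC and the E box CACGTG. Bcl2l11, Junb, Dcaf13, Atp6v1b2 and Psmd12 had upstream stretches of 68.0% to 76.7% G+C, whereas that of Prrg4 held 46.7% and none of the 5 sequences.
Bcl2l11 (chr2:128127393-128127542, plus strand): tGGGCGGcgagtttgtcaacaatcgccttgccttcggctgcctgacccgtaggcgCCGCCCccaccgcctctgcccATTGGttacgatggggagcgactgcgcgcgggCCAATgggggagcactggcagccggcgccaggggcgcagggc
Junb (chr8:84978749-84978898, minus strand): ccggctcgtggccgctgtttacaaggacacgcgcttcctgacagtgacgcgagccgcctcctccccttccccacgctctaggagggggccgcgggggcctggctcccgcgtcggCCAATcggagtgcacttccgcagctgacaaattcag
Dcaf13 (chr15:39112724-39112873, plus strand): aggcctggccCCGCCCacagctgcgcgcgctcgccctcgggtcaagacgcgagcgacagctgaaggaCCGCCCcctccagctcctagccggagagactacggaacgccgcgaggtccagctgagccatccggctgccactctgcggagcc
Atp6v1b2 (chr8:69088586-69088735, plus strand): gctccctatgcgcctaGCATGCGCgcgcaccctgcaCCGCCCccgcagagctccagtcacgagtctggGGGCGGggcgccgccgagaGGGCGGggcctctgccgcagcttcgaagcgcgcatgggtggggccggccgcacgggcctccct
Psmd12 (chr11:107479378-107479527, plus strand): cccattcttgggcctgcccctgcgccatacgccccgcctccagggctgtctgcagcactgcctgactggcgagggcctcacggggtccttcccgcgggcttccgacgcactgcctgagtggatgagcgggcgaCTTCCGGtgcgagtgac
Prrg4 (chr2:104849873-104850022, minus strand): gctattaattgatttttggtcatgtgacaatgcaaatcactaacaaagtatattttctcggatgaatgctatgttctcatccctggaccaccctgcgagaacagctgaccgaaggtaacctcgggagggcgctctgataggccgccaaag

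Most of the members sat on a start site. For 148 peaks the centre was at most 500 bp from a TSS, and for 81 of these at most 100 bp. Each distance group given here excludes its lower and includes its upper limit. A further 20 lay at 500 to 1000 bp, 40 at 1000 to 2500 bp and 46 at 2500 to 5000 bp. The peak itself covered a TSS in 138 members, all of them from the group within 500 bp. The centre was upstream of the nearest TSS in 152 members and downstream in 100, and in 2 it fell on the TSS. By the annotation, 101 centres were intergenic, 78 intronic, 50 in a 5′ UTR, 16 in an exon of a noncoding transcript, 5 in a coding exon and 4 in a 3′ UTR. The nearest TSS belonged to a protein-coding gene for 203 members, to a long noncoding RNA for 42, to a microRNA for 6 and to a small nuclear RNA for 3. Counting every gene with a TSS within 5000 bp, the peaks reached 341 genes, 0.882% of the 38660 annotated, and 266 of the protein-coding ones (1.22%).

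The limit of 5000 bp cut through a continuous range of distances. Just inside it were the peaks near Ralb, at 4886 bp with a score of 50.1, and near the small RNA gene Gm25405, at 4914 bp with a score of 50.3. Just outside were those near 1700001O22Rik, at 5004 bp with a score of 52.1, and Sncaip, at 5034 bp with a score of 55.2.

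The score of a peak is the authors' MACS value, 10 times the negative log10 of a p-value that sets 1 treated FAIRE library against its control. No FAIRE condition was replicated, so no peak had a replicate check. The paper gives an approximate read number per sample, but the list gave no read counts, so the reads behind each score are unknown. The median score of members was 58.4, against 57.4 in the TSS-distal peaks. Only 4 of 254 members scored 100 or more, against 32 of 606 TSS-distal peaks, whose scores reached 3100. Scores in the group within 500 bp reached 119 and had a median of 58.7. The median score at 500 to 5000 bp was 56.9.

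Among members, the highest scores did not belong to a single kind of gene. The member with the highest score, 463, lay in an intron of the predicted gene Gm33838 at chr9:35304968-35305707. The next, with a score of 249, covered part of the coding exon of Sox2, a pluripotency transcription factor, at chr3:34650342-34651457, and no read of Sox2 was counted in any of the 4 RNA libraries. The third was the peak over the start of Ube4b, a ubiquitin chain elongation enzyme, with a score of 119, followed by Gm40586 at 106. H2-DMa, which helps to load peptides on MHC class II, scored 96.4. Gm46178, the olfactory receptor gene Olfr769 and the zinc finger gene Zkscan3 scored 91.8, 91.8 and 88.0. Ube4b was expressed at 8.44 and 8.47 RPKM (reads per kilobase of exon, scaled to library size) in the controls, and Zkscan3 at 8.62 and 8.54. H2-DMa stood at only 0.490 and 0.461.

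Some members lay in sequence that occurs more than once in the genome. Every 50 bp stretch was unique in 209 members, whereas in 6 members under 50% of the stretches were. Among the high-scoring peaks, the share of unique stretches was 84.4% for Gm33838, 57.2% for Olfr769, 81.2% for Gm40586 and 80.6% for Gm46178, and it was 100% for Sox2, Ube4b, H2-DMa and Zkscan3. The peaks near Gm3435 and Pramel44 had no unique stretch.

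The base composition of the peaks changed with the distance to the TSS. The median G+C was 61.3% within 500 bp, 44.1% at 500 to 1000 bp, 46.9% at 1000 to 2500 bp and 39.9% at 2500 to 5000 bp. It was 40.6% in TSS-distal peaks inside genes and 37.4% in those between genes. The ratio of observed to predicted CpG dinucleotides had medians of 0.81, 0.42, 0.22 and 0.20 over the same 4 distance groups, and of 0.18 in the TSS-distal peaks. Using the usual definition of CpG-rich sequence, at least 50% G+C and a ratio of at least 0.6, 121 of the 148 peaks within 500 bp were CpG-rich (81.8%, Wilson interval 74.8 to 87.1). At 500 to 5000 bp, 5 of 106 were CpG-rich (4.72%, 2.03 to 10.6), and in the TSS-distal peaks 11 of 606 (1.82%, 1.02 to 3.22). Wilson intervals cover counting error only. In composition, peaks at 1000 to 5000 bp were closer to the TSS-distal peaks than to those at start sites.

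**Figure D1:**
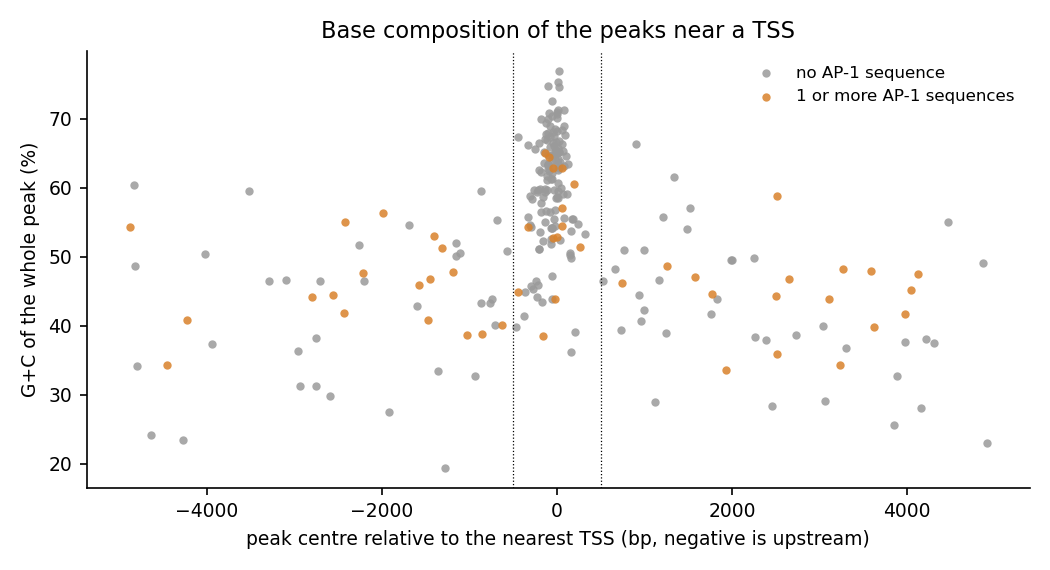
G+C of each of the 254 peaks (vertical axis, percent) against the position of its centre relative to the nearest TSS (horizontal axis, bp, negative upstream). Orange points held at least 1 AP-1 sequence, grey points none, and dotted lines stand at 500 bp on either side. Peaks close to the TSS form a tall cluster with a median of 61.3%, and those farther out lie mostly below 50%, where most orange points are.

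Sequence composition varies with the distance from start sites, so each peak's central 200 bp was set beside every 200 bp window of the same distance group. Distances within a group were not matched. Peaks within 500 bp had a median distance of 90.5 bp, whereas the windows cover all positions up to 500 bp from any RefSeq TSS. Within 500 bp, 70.3% of peak centres were CpG-rich (62.5 to 77.0), against 18.03% of the 255754 windows. At 2500 to 5000 bp the share was 2.17% of peak centres and 0.768% of the windows. At 500 to 5000 bp, the median G+C of peak centres was 44.5%, the same as the median of all windows there.

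Among the members, the AP-1 sequence was more frequent at 1000 to 5000 bp than closer to a TSS. It was present in 49 of the 254 members (19.3%, 14.9 to 24.6). By distance, it was in 14 of 148 peaks within 500 bp (9.46%, 5.72 to 15.3), in 3 of 20 at 500 to 1000 bp (15%, 5.24 to 36.0), in 15 of 40 at 1000 to 2500 bp (37.5%, 24.2 to 52.97) and in 17 of 46 at 2500 to 5000 bp (37.0%, 24.5 to 51.4). In the TSS-distal peaks it was in 73 of 269 inside genes (27.1%, 22.2 to 32.7) and in 74 of 337 between genes (22.0%, 17.9 to 26.7). The intervals of the peaks at 1000 to 5000 bp overlap those of the TSS-distal peaks, and that of the peaks within 500 bp lies below them.

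In the central 200 bp, where windows have equal length, the AP-1 sequence was found in 26 of 106 peaks at 500 to 5000 bp (24.5%, 17.3 to 33.5). Of all windows in that distance group, 3.36% held it, so the share in the peaks was 7.30 times as high. At 500 to 1000 bp alone it was in 1 of 20 centres (5%, 0.888 to 23.6), against 3.26% of windows. The excess thus came from peaks at 1000 to 5000 bp. It was not particular to them, as 110 of 606 TSS-distal centres (18.2%, 15.3 to 21.4) also held the AP-1 sequence. Within 500 bp, 7 of 148 peak centres held it (4.73%, 2.31 to 9.44), against 3.04% of windows, and the interval includes the share of the windows. Only 1 of the 104 CpG-rich centres within 500 bp had an AP-1 sequence (0.962%, 0.170 to 5.25), against 1.34% of CpG-rich windows. Of the 44 centres there that were not CpG-rich, 6 had one (13.6%, 6.403 to 26.7), against 3.41% of such windows. A match is a sequence of 7 letters, and whether AP-1 was bound there was not measured.

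**Figure D2:**
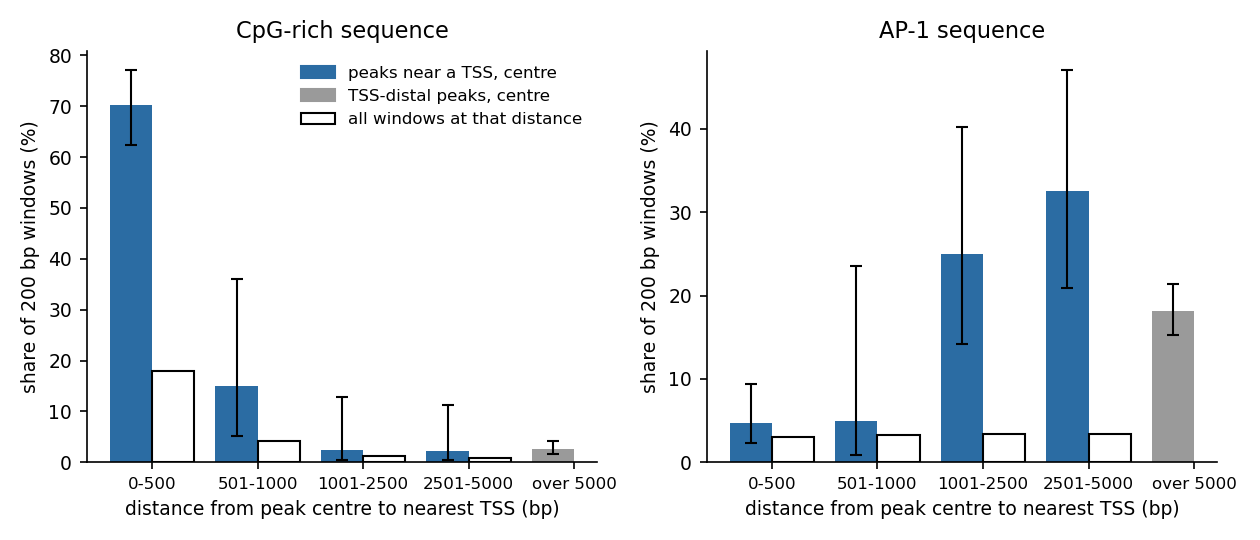
Share of 200 bp windows (vertical axes, percent) that were CpG-rich (left) or held the AP-1 sequence (right), by distance of the peak centre from the nearest TSS (horizontal axis, bp). Blue bars are centres of peaks near a TSS, grey bars centres of TSS-distal peaks, white bars all windows in that distance group, and error bars are 95% Wilson intervals. Over the blue bars, the CpG-rich share falls from 70.3% to 2.17% with distance, while the AP-1 share rises from 4.73% to 32.6%. The white AP-1 bars stay between 3.04% and 3.38%.

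Within the peaks, AP-1 sequences as a whole lay towards the centre. The members held 63 of them, and 40 (63.5%) were inside the central 200 bp. These 200 bp made up a mean of 35.9% of the length of each of the 49 peaks. The other shares of length given here are also means over peaks. At 500 to 5000 bp, 31 of 45 sequences (68.9%) were central, against 38.1% of the length, and the median distance from the peak centre was 62 bp. Within 500 bp, 9 of 18 were central (50.0%), against 30.6% of the length, and 3 of the 9 were in the Sun1 peak. In peaks there with a CpG-rich centre, only 1 of 7 was central (14.3%), against 23.9% of the length. At 500 to 1000 bp it was 1 of 3 (33.3%), against 34.2%. Members with the sequence had a median G+C of 46.7% and a median distance of 1572 bp, while the 205 without it had 55.7% and 180 bp. Their median scores, 58.1 and 58.4, were nearly equal.

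**Figure D3:**
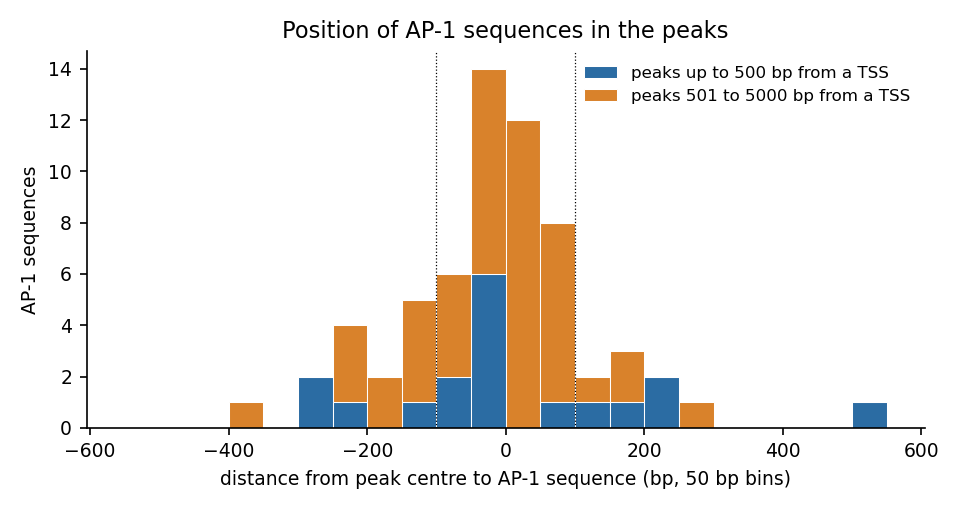
Number of AP-1 sequences (vertical axis) by distance from the peak centre (horizontal axis, bp, 50 bp bins), for peaks up to 500 bp from a TSS (blue) and at 500 to 5000 bp (orange), stacked. Dotted lines mark the central 200 bp, which held 40 of the 63 sequences.

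Of the members, 12 held 2 or more AP-1 sequences. The Sun1 peak, with a score of 62.3, held 4, and the other 11 held 2 each. Those with the highest scores were Gm32234 (75.8), the vomeronasal receptor gene Vmn1r60 (73.9), Gm29901 (72.8), Gm51958 (64.3) and Cirbp, a cold-inducible RNA-binding protein gene (62.3). Gm35208 scored 58.1 and Kdm1a, which encodes a histone H3 lysine demethylase, scored 56.8. In the Ralb peak, near a gene for a small GTPase, the 2 sequences stand 3 bases apart, as printed above. Of the 12, 10 were at 500 to 5000 bp from a TSS and 2, Sun1 and Cirbp, within 500 bp. Sun1 RNA was at 23.5 and 23.4 RPKM in the controls and at 25.0 and 24.5 at 25 µM, and Kdm1a at 24.9 and 25.1 against 28.02 and 25.4. Vmn1r60 had no counted read in any library.

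Other promoter sequences marked the peaks at start sites. Overlapping matches were counted on both strands, and the shares that follow refer to the central 200 bp of the 148 peaks within 500 bp. The GC box, bound by SP and KLF factors, was in 49.3% of centres and 14.4% of all windows in that distance group. Among CpG-rich sequence alone it was in 60.6% of centres (51.0 to 69.4) and 52.5% of windows, a smaller difference. The interval includes the share of the windows. The GCGTG core of the xenobiotic response element was in 50.0% of centres and 17.2% of windows. In CpG-rich sequence it was in 60.6% (51.0 to 69.4) and 43.9%, so its interval lay above the share of the windows.

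The ETS, NRF1 and E box sequences also stayed more frequent when only CpG-rich sequence was compared. The ETS sequence was in 20.2% of CpG-rich centres (13.6 to 28.9) and 7.71% of CpG-rich windows. The NRF1 core, bound by a regulator of nuclear genes for mitochondrial proteins, was in 7.69% (3.95 to 14.5) and 2.17%. The E box CACGTG, recognised by MYC and USF proteins, was in 18.3% (12.0 to 26.8) and 5.56%. All 3 lower bounds lie above the share of the windows. Windows include every position within 500 bp of a TSS, whereas peak centres crowd close to it, and the part of this position in the difference was not tested.

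The other sequences searched were rare in the peaks or closer to their share of the windows. The CCAAT box was in 22.3% of centres within 500 bp and 23.4% of windows, and the TATA box TATAAA in 4.05% (1.87 to 8.56) and 10.4%. In CpG-rich sequence the TATA box was in 1.92% and 1.91%. The antioxidant response core TGACNNNGC, which can overlap an AP-1 sequence, was in 12.2% (7.83 to 18.4) against 7.11% within 500 bp, and in 4.72% (2.03 to 10.6) against 5.96% at 500 to 5000 bp. The C/EBP sequence TTGCGCAA was in no centre of any member, against 0.024% of windows within 5000 bp. With so rare a sequence, 0 of 254 (upper Wilson bound 1.49%) is not a result about the peaks. The cyclic AMP element TGACGTCA was in 3 centres, all within 500 bp (2.03%, 0.692 to 5.79, against 0.388% of windows).

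Some peaks at start sites lay by genes transcribed in opposite directions. Of the 148 peaks within 500 bp, 45 had a TSS of the other strand within 1000 bp of the nearest TSS (30.4%, 23.6 to 38.2). For the 84 whose nearest TSS was that of a curated mRNA, the count was 22 (26.2%, 17.98 to 36.5), against 18.9% of all 21000 genes with a curated mRNA. The interval includes that share.

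The peaks closest to a curated mRNA start were near Ikbip at -3 bp, Dcaf13 and Amdhd2 at -6 bp, Rnf170 at 7 bp, Unc50 at -8 bp, Mfsd13b at 14 bp, Ctsa at 15 bp and Washc5 at 16 bp. Dcaf13 acts in ribosome assembly, Amdhd2 in amino sugar breakdown, Rnf170 in protein degradation at the endoplasmic reticulum, and Washc5 in endosome sorting. Their scores ran from 54.1 for Washc5 to 78.6 for Ikbip. Of the 8 genes, 7 were expressed, from 2.65 and 2.69 RPKM for Rnf170 in the controls to 142 and 145 for Ctsa, and no read of Mfsd13b was counted in either control.

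RNA libraries held 32319676 to 37696116 counts. Hepatoma markers were high, with Alb at 439 and 460 RPKM in the controls, Afp at 71.5 and 72.2, Krt8 at 522 and 555 and Krt18 at 770 and 782. Of the other hepatocyte and fetal liver genes, Hnf4a, Apoa1 and H19 were at or near 0, at no more than 0.054 RPKM in a control. The leukocyte gene Ptprc and the endothelial gene Pecam1 did not exceed 0.147 RPKM there, and Cd3e and Cdh5 were at 0. The leukocyte list also holds Cd68, a lysosomal protein of macrophages, which was at 6.23 and 6.64, and the fibroblast gene Col1a1 stood at 34.3 and 34.9. Over genes with at least 20 reads, the control libraries differed by 2.15 times the variance of counting alone, and the treated libraries by 123 times. The controls thus exceeded counting noise by little and were kept as 2 libraries. Nothing in the labels says that libraries came from separate cultures, so p-values measure the spread between these libraries, which may be technical. In bulk RNA, fewer cells of a type and less RNA per cell cannot be told apart.

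Genes next to the peaks were mostly expressed genes where the peak was at the start site. The 254 members had 252 nearest genes, 205 of them in the count table. Their median level in the controls was 7.69 RPKM, against 0.502 over all genes of the table. The median was 10.3 RPKM for peaks within 500 bp, 4.25 at 500 to 1000 bp, 1.23 at 1000 to 2500 bp and 0.171 at 2500 to 5000 bp. At least 1 RPKM was reached by 123 of 137 genes (89.8%) within 500 bp and by 37 of 68 (54.4%) at 500 to 5000 bp, against 46.4% of all genes in the table. Among the most highly expressed neighbours were Tuba1b, an alpha-tubulin gene, at 1999 and 2082 RPKM, and the ribosomal protein genes Rpl35 at 734 and 738 and Rpl27a at 577 and 593, whose counts may share reads with near-identical copies. These levels are from cells not grown in 0.5 µM Cr(VI).

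**Figure D4:**
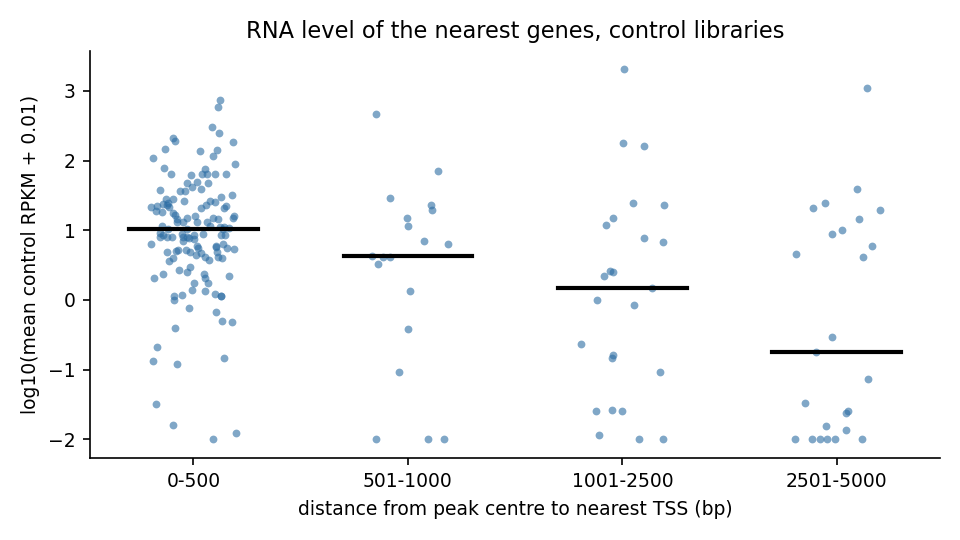
RNA level of the nearest genes in the count table, as log10 of the mean control RPKM plus 0.01 (vertical axis), by distance of the peak centre from the TSS (horizontal axis, bp). Each point is a gene and black lines are medians, which correspond to 10.3, 4.25, 1.23 and 0.171 RPKM from the nearest to the farthest group.

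To ask whether genes next to long-term peaks also responded to the acute dose, their RNA was compared between 25 µM Cr(VI) and control with edgeR's quasi-likelihood test. Of 177 nearest genes tested, 5 passed an adjusted p of 0.05 (2.82%), 2 higher and 3 lower at 25 µM. Over all 13619 genes tested, 4.63% passed, 1.78% higher and 2.85% lower, so the count did not exceed that of genes at large. At an unadjusted p under 0.05, 47 of the 177 passed (26.6%), against 30.7% of all genes. The median log2 fold change of the nearest genes was 0.01, with quartiles of -0.25 and 0.27, and 93 of the 177 were above 0. Over all genes the median was -0.0047 and the quartiles were -0.36 and 0.36. By distance, 3 of 133 passed within 500 bp (2.26%) and 2 of 44 at 500 to 5000 bp (4.55%). Leaving out 1 library changed the count to 2 without control replicate 1, 1 without control replicate 2, 141 without treated replicate 1 and 125 without treated replicate 2. The share of all genes called then was 2.07%, 2.02%, 77.6% and 67.2%. With 1 treated library, the spread came from the 2 closely similar controls alone, and the lone library was assumed to vary like them.

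The gene with the largest change that passed was Txnip, which encodes an inhibitor of thioredoxin that is sensitive to glucose and oxidants. Its peak at chr3:96557475-96558319 covered the start site, with a centre 60 bp upstream and a score of 55.3. Txnip was at 26.3 and 27.01 RPKM in the controls and at 86.9 and 91.8 at 25 µM. Both treated libraries lay far above both controls. The log2 fold change was 1.75 (SE 0.11, adjusted p 0.0282, edgeR's quasi-likelihood test). It was called under all 9 other settings tried for the RNA comparison. An antisense gene, Gm15441, overlaps Txnip, and without strand information their reads cannot be told apart.

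Bcl2l11, which encodes the pro-apoptotic protein BIM, had a peak at chr2:128126990-128127736, with a centre 180 bp upstream of a start site. It was at 8.09 and 7.90 RPKM in the controls and 15.8 and 16.9 at 25 µM. The treated libraries were again above both controls, and the log2 fold change was 1.03 (SE 0.11, edgeR adjusted p 0.0317). Its peak was 70.0% G+C and CpG-rich. The region annotated to Acoxl on the same strand overlaps Bcl2l11, so the counting of shared reads is uncertain. Without control replicate 1 or control replicate 2, the adjusted p of Bcl2l11 was 0.218 and 0.244.

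The 3 genes that passed as lower at 25 µM were Tnxb, Tns1 and Prrg4. Tnxb, the matrix glycoprotein tenascin-X, was at 14.6 and 14.6 RPKM in the controls and 6.09 and 7.05 at 25 µM (log2 fold change -1.15, SE 0.12, edgeR adjusted p 0.0319). Its peak lay 4835 bp upstream. Tns1, which encodes the focal adhesion protein tensin, was at 2.40 and 2.54 against 1.20 and 1.16 (log2 fold change -1.07, SE 0.13, edgeR adjusted p 0.0362). Its peak, 1457 bp upstream and inside an intron, held the AP-1 sequence printed above. Prrg4, a membrane protein with a Gla domain, was at 26.4 and 22.9 against 13.4 and 12.3 (log2 fold change -0.94, SE 0.13, edgeR adjusted p 0.0410). Its peak was 231 bp upstream of the start. In each of the 3, both treated libraries lay below both controls. Without control replicate 1 or 2 none of the 3 passed, with adjusted p of 0.0751 and 0.0768 for Tnxb, 0.206 and 0.275 for Tns1 and 0.311 and 0.137 for Prrg4. Without normalization beyond library size, Tns1 and Prrg4 also missed the threshold (0.0504 and 0.0595).

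**Figure D5:**
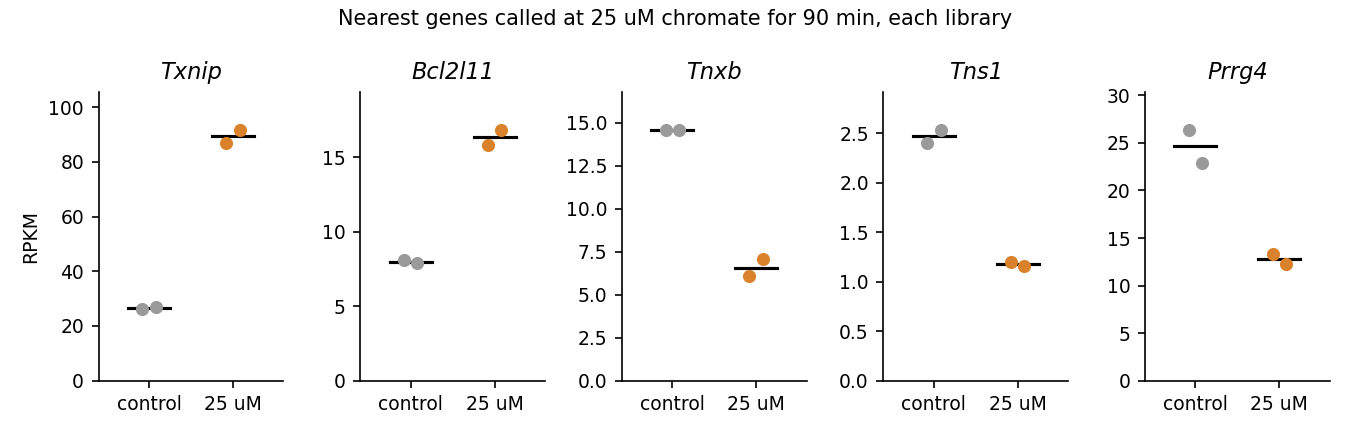
RPKM (vertical axes, each from 0) of the 5 nearest genes that passed the test, in 2 control and 2 acutely treated RNA libraries. Points are libraries and lines are means of 2 libraries. Txnip and Bcl2l11 are higher in both treated libraries, and Tnxb, Tns1 and Prrg4 are lower.

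Other neighbours with sizeable differences did not pass. Rpl35 was at 734 and 738 RPKM in the controls and 1214 and 1753 at 25 µM (edgeR adjusted p 0.0758). Stk3, a Hippo pathway kinase, was at 14.8 and 15.3 against 9.53 and 8.64 (edgeR adjusted p 0.0519). Rpl35 was chosen for mention after its values were seen. Stk3 and the long noncoding RNA gene Gm30713 were the 2 genes with a pair of members. The Stk3 peaks lay 194 bp downstream and 1572 bp upstream of the start, with scores of 58.6 and 59.8, and each held 1 AP-1 sequence. They had 60.5% and 45.9% G+C, respectively. The Gm30713 peaks, 36 and 1157 bp upstream, had 55.5% and 51.9% G+C and held no AP-1 sequence.

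Members of 15 gene lists on chromium, stress, repair, chromatin and liver functions were looked up for a peak within 5000 bp of a start. Of 310 listed genes 10 had one (3.23%, 1.76 to 5.84), against 1.22% of protein-coding genes. Most of these 10 were genes the study had named for AP-1 motifs in promoters opened by long-term chromate. They were Cdc42se2, Lrrfip1, Fnbp1, Ctsa, Mmp10, Psmd12 and Rtel1, and only Junb, Ctsl and Foxa3 were not so named. The study drew those names from the same FAIRE comparison, so these peaks were known beforehand. The share is therefore a description, and its excess over protein-coding genes is not a result about the lists. No peak lay near any of 20 NRF2 and glutathione genes, 20 p53 targets, 15 metal response genes, 10 aryl hydrocarbon receptor genes, 34 listed chromatin remodeler and histone modifier genes, 16 heat shock and unfolded protein genes, 23 TGF-beta and growth factor genes or 11 sulfate and anion transporters. The chromatin list does not hold the histone demethylase genes Kdm1a and Kdm4c, which had a peak at 4128 and 92 bp. Other genes near a peak are also missing from the lists, among them Rpa2 (200 bp), Dna2 (111 bp), Rmi1 (140 bp) and Sprtn (55 bp). The same holds for Apaf1 (293 bp) and Cul3 (538 bp). Counts here therefore refer to the listed genes only, not to whole pathways. By the rough rule of 3 divided by the number of genes, a count of 0 allows up to 8.82% of 34 genes and up to 30.0% of 10. This rule covers counting error alone and is not a Wilson bound. In RNA at 25 µM, 2 of the 20 NRF2 and glutathione genes tested passed as higher and none as lower. As higher, 1 also passed among 20 tested TGF-beta and growth factor genes and 1 among 31 proteasome genes. As lower, 1 passed in each of the lists of 32 DNA repair, 28 actin and adhesion, 34 chromatin and 18 lysosome genes, and none passed in the other 8 lists. Over all genes tested 1.78% passed as higher and 2.85% as lower, so counts of 1 in lists of this size are not results about the lists.

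Of 20 AP-1 and BACH factor genes, only Junb had a peak. It covered the start site with a centre 134 bp upstream, a score of 59.9, 59.4% G+C and no AP-1 sequence of its own. Junb, an AP-1 subunit induced early by many stimuli, was at 61.8 and 60.9 RPKM in the controls and 74.2 and 139 at 25 µM. The treated libraries differed widely from each other, and the log2 fold change of 0.80 (SE 0.32) had an edgeR adjusted p of 0.183.

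Among 28 actin and adhesion genes, Cdc42se2, Lrrfip1 and Fnbp1 had a peak. Cdc42se2 encodes a Cdc42 effector and Fnbp1 a membrane-bending protein that binds formins. The first 2 peaks covered promoters, 91 and 140 bp upstream, and held 1 AP-1 sequence each, while the Fnbp1 peak was 738 bp upstream without one. All were among the genes the study had named for AP-1 motifs in opened promoters, so these matches were known beforehand. Of 18 lysosome genes, the proteases Ctsa and Ctsl had a peak, and Ctsl was at 245 and 245 RPKM in the controls and 159 and 229 at 25 µM (edgeR adjusted p 0.366). Of 18 matrix metalloproteinase genes Mmp10, stromelysin 2, had a peak 155 bp upstream. That peak had only 38.6% G+C and 1 AP-1 sequence, and the study had named Mmp10 for such a motif too. Mmp10 RNA was at 12.7 and 13.2 RPKM against 13.4 and 21.2 (edgeR adjusted p 0.328).

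The remaining listed genes were Rtel1, a helicase that protects telomeres (1 of 32 DNA repair genes), Psmd12, a proteasome lid subunit (1 of 31 proteasome genes), and Foxa3, a liver transcription factor (1 of 15). The Rtel1 and Psmd12 peaks were CpG-rich, at 59 and 43 bp from the start, and each held 1 AP-1 sequence. Both genes had been named by the study for AP-1 motifs in opened promoters, so these matches were known beforehand. The peak near Foxa3 was 208 bp from the start of Sympk, its nearest gene, which was at 21.9 and 22.2 RPKM, while Foxa3 was at 0.056 and 0.075. Of the 10 listed genes with a peak, 9 were tested in RNA and none passed, where 4.63% of all genes did, so this count says nothing about them.

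A small share of these genes also had a peak near a start site after the acute dose. The acute list held 2945 peaks, 787 of them within 5000 bp of a TSS (26.7%). A gene with a start near a peak in both lists was found 17 times, 4.99% of 341 genes near long-term peaks and 1.79% of 950 near acute peaks. Of all 38660 annotated genes, 2.46% had an acute peak near a start. Only 3 members shared a base with an acute peak, those near Gm51958, 2700054A10Rik and Mppe1, and 9 of 254 (3.54%) lay within 5000 bp of one. For the TSS-distal peaks the share within 5000 bp of an acute peak was 2.81%. The 17 genes included Atp6v1b2, a proton pump subunit, with peaks 180 and 532 bp from the start, and H2-DMa and Brd2, which share 1 peak of each list. Eif3g, a translation initiation factor gene, and Piwil4 were also among them, with long-term peaks at 195 and 2419 bp. For Glrp1 and Ank1 the peaks of the lists lay at different start sites, 18594 and 64361 bp apart.

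The acute peaks near a TSS were narrower and more often lay away from the start site. Only 169 of 787 (21.5%) had their centre within 500 bp, against 148 of 254 long-term peaks, and 9.15% were CpG-rich over their length, against 49.6%. Their median width was 127 bp, against 592 bp. The CpG-rich shares thus refer to unlike lengths, and central windows of equal length were not compared. The median G+C was similar, at 52.1% against 54.2%. Each list comes from 1 library pair, so treatment and library cannot be told apart in these differences.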

How the data were processed

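FAIRE-seq used 4 libraries, 1 a condition, and RNA-seq 4, 2 a group. The authors aligned FAIRE reads with BWA to mm10 and called peaks with MACS, and the deposited peak score is 10 times the negative log10 of the p-value. The authors aligned RNA reads with TopHat, and the deposited count values are reads per Entrez gene without normalization. The counting tool, its annotation and its use of strand are not given in the sources used here.

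Peaks were placed on the RefSeq annotation of GRCm38.p6, the build of the files, which held 119253 transcripts. Sequences come from the same RefSeq genome. The 12 motifs, of which 1 is not reported here, were searched in each peak and in its central 200 bp, and in every 200 bp window within 5000 bp of a TSS. CpG-rich meant at least 50% G+C and an observed to predicted CpG ratio of at least 0.6. Counts were tested for 25 µM Cr(VI) against control with edgeR 4.0.16 (quasi-likelihood, TMM, filterByExpr, two-sided, Benjamini-Hochberg adjustment over 13619 genes, threshold 0.05, no block). The treated libraries had TMM factors of 1.03 and 0.897, the controls 1.04 each, and the biological coefficient of variation was 0.193. RPKM was computed here from the deposited counts with the TMM library sizes and the exon length of each gene. Peaks from 1 library pair are not replicates, so no test was made over peaks. Scripts were tested on simulated data.

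Members and gene lists were chosen with earlier results of these data known. Genes named were the 8 highest scores, the 8 centres nearest to a curated mRNA start, up to 8 by score with 2 or more AP-1 sequences, nearest genes that passed the RNA test, listed genes, peaks next to the distance limit, genes with 2 members and genes shared with the acute list. Others are named as examples chosen after their values were seen, as are the sequences printed. Alternatives varied the distance limit, the TSS set, the score, the AP-1 sequence, the normalization, the filter, the test (DESeq2 1.42.0), the replicate block and each library left out. That of repeated sequence was chosen after seeing the data.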

Additional observations from a re-analysis of the deposited data

How the results depend on the processing

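The number of members, 254, was 168 with a limit of 1000 bp, 106 with a score of at least 60 and 4 with a score of at least 100. The share with the AP-1 sequence, 19.3%, was 13.0% in the central 200 bp of each peak and 10.1% within 1000 bp, and 19.6% in the 209 peaks free of repeated stretches, an alternative chosen after seeing the data. The median G+C rose from 54.2% to 59.6% within 1000 bp. Of the 138 peaks over a TSS, 57 scored at least 60. The 17 genes shared with the acute list became 4 within 1000 bp, 11 with curated TSSs and 11 with the nearest gene only.

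The count of 5 nearest genes called at 25 µM changed with several settings. It was 22 with DESeq2 (14.2% of all genes), 3 within 1000 bp, 3 with curated TSSs and 2 with a score of at least 60. Leaving out 1 library gave 1 to 141 calls, the high counts arising when the spread came from the 2 control libraries alone. With the replicate block it was 33, when 21.8% of all genes passed. Replicate numbers are shared between groups as labels only, the deviations of same-numbered libraries correlated at 0.134, and 2 pairs do not establish a pairing. The nearest genes' median log2 fold change became -0.11 without normalization beyond library size, a shift shared by all genes, and ranged from -0.023 to 0.051 when 1 library was left out. Their median control level of 7.69 RPKM was 8.74 within 1000 bp and 8.27 with curated TSSs. In all, 33 of 55 alternative values stayed close to the value reported. Close meant within 1.5 times for counts and within the spread for shares and medians. The paper gives only an approximate read number per FAIRE sample, so the exact depth of each library is unknown. With 1 library a condition, no peak had a replicate check.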

Other observations

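Of the 49 members with an AP-1 sequence, some lay by genes outside the lists. Besides Stk3, its paralog Stk4, the other mammalian Ste20-like kinase of the Hippo pathway, had a peak in an intron 3108 bp downstream of a start, with a score of 53 and 1 AP-1 sequence. Stk4 was at 21.1 and 21.0 RPKM in the controls and 20.6 and 15.5 at 25 µM (edgeR adjusted p 0.425). Itm2b, a membrane protein gene, had a peak 1473 bp upstream with 1 AP-1 sequence, and was at 176 and 181 RPKM against 242 and 260 (edgeR adjusted p 0.0945). These genes were chosen after their values were seen.

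Among peaks within 500 bp, the 150 bases upstream of Cog6, a Golgi transport gene, and Adam10, a membrane protease gene, held the NRF1 core. The stretch of Cog6 held 4 overlapping matches on both strands in 2 places. That of Adam10 also held 2 GC boxes, 1 CCAAT box and 1 E box. Their peaks scored 66.7 and 55.2, and both were chosen after their sequences were seen.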
